A study of Mus musculus with 3 samples.

Results

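The Tcl1 cluster of mouse chromosome 12 was described as all 1 kb windows of chr12:106250001-106560000 in mm9, the stretch that holds Tcl1 near 106.455 Mb and its Tcl1b relatives. It makes up 310 of the 2725738 windows of 1 kb in the files, and no measured value was used to choose it. RNA of ovulated oocytes from 3 litters had been sequenced, with 1 library per litter, called litters 1, 2 and 3 here, and the series holds this single group. The oocytes came from superovulated females of mixed strain with the genotype LSD1 FL/FL, ZP3::Cre negative, and were collected by E0.5. LSD1 is the histone demethylase encoded by Kdm1a, and FL marks an allele that the oocyte-specific ZP3::Cre would delete. Without that transgene the allele is not deleted, and all 3 litters share this genotype. Total RNA was amplified by SPIA, a linear isothermal copying of cDNA, before the Illumina libraries were built, and how many oocytes entered a library is not given in the sources used here.

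Tcl1 and the Tcl1b genes encode small proteins of the TCL1 family, whose founding member binds the kinase AKT and raises its activity, and which is known in humans as an oncogene of T cell leukaemia. In mice the Tcl1b genes arose by tandem duplication beside Tcl1, and the cluster is known for its transcription in oocytes and early embryos. Maternal Tcl1 is known for a role in the cleavage divisions of the early mouse embryo. No annotation of mm9 was used here, so the genes were found by the lengths of their exons and introns alone, which do not depend on a genome build. For each gene, the 4 exons of a GENCODE transcript were moved along the region as 1 rigid pattern, and the place with the most alignments inside the exons and the fewest across their borders was kept. In RefSeq, which was read for names and order alone, the neighbours run Glrx5, 4 long noncoding RNA genes, Tcl1b2, Tcl1b1, Tcl1b5, Tcl1b3, Tcl1b4, Tcl1 and the noncoding Tunar. The markers of oocytes and of cumulus cells could not be checked, since no gene outside the cluster was placed.

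The second exon shows how close the 5 Tcl1b genes are. It is wholly coding, and it is given here because the relation between these copies bears on every count below. Capitals mark the 107 bases that all 5 genes share, and the sequences are those of GENCODE release M21 on GRCm38, 5′ to 3′ on the coding strand.
Tcl1b1 exon 2: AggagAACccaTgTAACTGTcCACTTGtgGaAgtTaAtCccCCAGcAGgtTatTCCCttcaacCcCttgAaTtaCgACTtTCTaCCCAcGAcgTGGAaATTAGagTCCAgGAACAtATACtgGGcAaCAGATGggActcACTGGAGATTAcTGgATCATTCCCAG
Tcl1b2 exon 2: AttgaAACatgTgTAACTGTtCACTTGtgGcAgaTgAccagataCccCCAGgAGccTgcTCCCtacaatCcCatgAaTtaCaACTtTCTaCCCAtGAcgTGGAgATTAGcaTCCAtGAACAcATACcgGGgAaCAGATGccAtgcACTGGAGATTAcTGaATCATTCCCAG
Tcl1b3 exon 2: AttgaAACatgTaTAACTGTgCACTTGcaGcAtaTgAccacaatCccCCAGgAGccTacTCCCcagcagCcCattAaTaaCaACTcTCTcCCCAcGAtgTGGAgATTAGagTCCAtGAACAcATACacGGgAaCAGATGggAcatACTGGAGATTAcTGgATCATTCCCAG
Tcl1b4 exon 2: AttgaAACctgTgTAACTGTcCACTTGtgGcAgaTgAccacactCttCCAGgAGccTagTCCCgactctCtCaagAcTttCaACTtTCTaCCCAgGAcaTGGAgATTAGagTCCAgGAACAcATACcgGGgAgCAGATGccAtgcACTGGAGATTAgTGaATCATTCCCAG
Tcl1b5 exon 2: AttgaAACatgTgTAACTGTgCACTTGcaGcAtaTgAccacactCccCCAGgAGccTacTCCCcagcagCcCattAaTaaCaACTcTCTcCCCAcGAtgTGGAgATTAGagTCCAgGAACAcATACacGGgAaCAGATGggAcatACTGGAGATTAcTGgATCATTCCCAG
Over the coding sequence, the Tcl1b genes were 72.3% to 86.5% identical to each other, with Tcl1b4 and Tcl1b5 the farthest apart and Tcl1b3 and Tcl1b5 the closest. Tcl1 was 44.1% to 46.9% identical to them. The last exons, which hold no coding base except for 4 bases in Tcl1b4, were more alike than the coding sequences, at 90.5% to 96.8% among the Tcl1b genes. A read of 72 bases can therefore match more than 1 gene in the last exon. Of all words of 72 bases, Tcl1b2 and Tcl1b3 had 152 in common, Tcl1b3 and Tcl1b5 had 96, Tcl1b1 and Tcl1b2 as well as Tcl1b2 and Tcl1b5 had 39 each, Tcl1b1 and Tcl1b3 had 16, and Tcl1b2 and Tcl1b4 had 6. Tcl1 shared no such word with any Tcl1b gene.

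The third exon ends the reading frame in all of these genes but Tcl1b4, and it differs in length among them. The coding part and the stop codon, in capitals, are given next, since this exon was the shortest in every gene and limits what reads of 72 bases can show.
Tcl1 exon 3: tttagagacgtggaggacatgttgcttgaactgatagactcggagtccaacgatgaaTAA
Tcl1b1 exon 3: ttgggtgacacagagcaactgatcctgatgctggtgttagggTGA
Tcl1b2 exon 3: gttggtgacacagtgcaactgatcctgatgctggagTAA
Tcl1b3 exon 3: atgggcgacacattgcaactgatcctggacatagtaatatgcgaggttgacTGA
Tcl1b4 exon 3: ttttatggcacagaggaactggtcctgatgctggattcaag
Tcl1b5 exon 3: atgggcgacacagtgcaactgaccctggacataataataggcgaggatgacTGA
In Tcl1b4 the frame runs on into the last exon and no stop codon lies in exon 3.

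Sequencing depth was similar. Litter 1 had 35183199 alignments, each of 72 bases, litter 2 had 31787887, and litter 3 had 32028802. Each library was 1 sequencing lane, so litter and lane cannot be told apart. A share of 85.4% ± 0.197 (SD, n = 3) of all alignments repeated the start position of another. These repeats are not known to be separate molecules. Counting intervals would cover counting error alone, and the spread between litters is given in their place.

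The 6 family genes together held 86.3% ± 1.80 (SD, n = 3) of the region's signal, and the last exons alone held 80.1%, 80.7% and 71.6% of it in litters 1, 2 and 3. The region summed to 948.2, 955.8 and 523.7 CPM, where CPM is the number of alignments scaled to a library of 1000000, with a mean of 809 ± 247 (SD, n = 3). Litter 3 was the low one, and the highest litter was 1.82 times the lowest. Most of the lower sum of litter 3 lay in the last exons of the family, at 760, 771 and 375 CPM in litters 1, 2 and 3. Exons 1 to 3 had 63.3, 68.4 and 66.7 CPM. Stretches of high depth outside the family's exons, described below as peaks, had 99.2, 78.7 and 57.9 CPM, so litter 3 was the lowest there too. Bulk RNA does not separate fewer oocytes that carry an RNA from less of it per oocyte, and the cause of the lower sum was not tested. The signal was concentrated, with 87.4%, 85.3% and 79.9% of it in the 10 highest windows. A total of 31 windows, of the 310 had at least 1 CPM in every litter, or 1 in 10, against 33316 windows or 1.22% in the files as a whole. The region was chosen for a known oocyte gene cluster, so this excess is a description. Of these 31 windows, 22 overlapped an exon of a family gene. At the other end, 222 windows held no alignment in any litter. The covered bases came to 5.52%, 4.90% and 4.60% of the region in litters 1, 2 and 3. The bases covered in all litters came to 3.43%, in 50 stretches with a median length of 162.5 bases and a longest stretch of 952 bases.

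**Figure D1:**
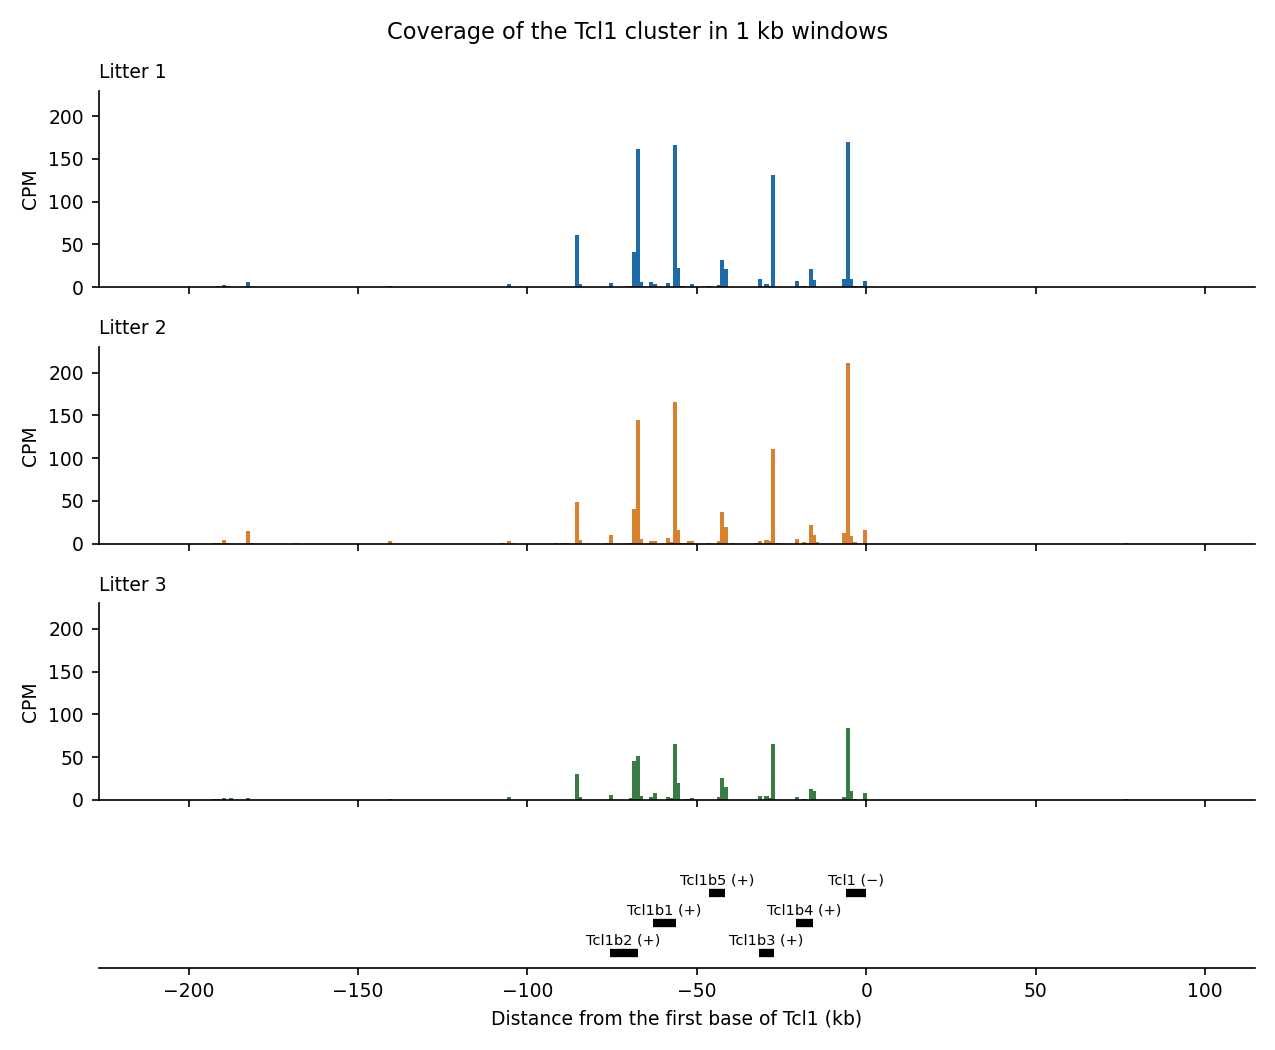
CPM in each 1 kb window of the region (vertical axis) by distance from the first base of Tcl1 in kb, with 1 panel per litter and the placed genes with their strand below. The tallest bars stand at the ends of the genes, that of Tcl1 at 169, 212 and 84.6 CPM in litters 1, 2 and 3.

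Tcl1 was placed on the minus strand at chr12:106454960-106460947, next to the position the region is named for. Its placement scored 24.83 in summed log2 units, 7.60 above the best other place. The Tcl1b genes lay on the plus strand, with Tcl1b2 at chr12:106385228-106393432, Tcl1b1 at chr12:106397899-106404834, Tcl1b5 at chr12:106414553-106419354, Tcl1b3 at chr12:106429251-106433820 and Tcl1b4 at chr12:106440165-106445199. This is the order that RefSeq gives. The lead over the next place was 5.35 for Tcl1b2, 6.87 for Tcl1b4, 8.37 for Tcl1b3 and 13.88 for Tcl1b1. For Tcl1b5 the best place, from base 106400036, overlaps Tcl1b1, and it led the next place by 0.50. The place kept was the best one free of other genes, and it scored lower, at 26.14 against 26.64. The place of Tcl1b5 thus rests on the rule that genes do not overlap. Between 99.0% and 100% of the alignments that lay within a gene's span lay in its exons in each litter, so the introns were almost empty. At the 5′ border of the last exon, the placed exon and the stretch with a depth of at least 10 differed by 3 to 6 bases in all 6 genes, a border that the placement score itself favours. At other borders the difference was larger, such as 37 bases at the 5′ end of Tcl1 and 95 bases at the 3′ end of exon 2 of Tcl1b4.

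Per length over the exons of at least 150 bases, the last exon included, Tcl1b2 was the highest of the 6 genes and Tcl1b4 the lowest. Levels are given as RPKM, the CPM per kilobase of possible start positions, over these exons. Tcl1b2 had 261, 244 and 128 RPKM in litters 1, 2 and 3 (211 ± 72.2, SD, n = 3). Tcl1b1 had 231, 224 and 102 RPKM (186 ± 72.6). Tcl1 itself had 171, 217 and 93.8 RPKM (160 ± 62.1), and Tcl1b3 had 181, 149 and 94.0 RPKM (141 ± 43.9). The ranges of these 4 genes over litters overlapped. Within each litter, Tcl1b2 was above Tcl1b1 and Tcl1b1 above Tcl1 and Tcl1b3, while Tcl1 was above Tcl1b3 in litter 2 and below it in litters 1 and 3. Tcl1b5 had 69.9, 74.4 and 51.6 RPKM (65.3 ± 12.1), which lay below every litter of the 4 higher genes. Tcl1b4 had 30.2, 31.0 and 22.6 RPKM (27.9 ± 4.62), below every litter of Tcl1b5. Over exons 1 and 2 alone the order differed. Tcl1 was then the highest in every litter, with a mean of 80.4 RPKM. Tcl1b4 was again the lowest, with its first exon taken at the annotated length. Tcl1b2 had a mean of 30.6 RPKM there, below Tcl1b1 at 54.0 and Tcl1b3 at 34.4. The Tcl1b4 transcript whose lengths matched best has a first exon of 669 bases, and the peak on it began 486 bases inside. A shorter first exon would raise its level, so its lowest place over exons 1 and 2 depends on that length. By exon 2 alone, Tcl1b4 had a mean of 11.1 RPKM and Tcl1b2 14.9, but Tcl1b2 was the lower in litter 2, at 10.9 against 11.7. Counts at words of 72 bases shared between genes were almost always the same in each gene, so they enter the levels of several Tcl1b genes, and none enters that of Tcl1.

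Within every gene and in every litter, the last exon was higher per length than the pooled exons 1 and 2. Singly, exon 2 of Tcl1 was above the last exon in litter 3, at 111 against 98.2 RPKM. In Tcl1, the last exon of 952 bases had 200.3, 251.0 and 98.2 RPKM in litters 1, 2 and 3, against 66.0, 96.9 and 78.3 RPKM in exons 1 and 2 together. The ratio of last to earlier exons was 3.03, 2.59 and 1.25. By its mean the ratio was largest in Tcl1b2, at 17.1, 8.53 and 6.06 in litters 1, 2 and 3, although Tcl1b5 was above it in litter 2 and Tcl1b4 in litter 3. Tcl1b2 had 379, 345 and 177 RPKM in the last exon and 22.2, 40.4 and 29.2 RPKM in exons 1 and 2. In Tcl1b1 it was 5.17, 6.94 and 2.18, in Tcl1b3 5.48, 7.90 and 3.78, in Tcl1b4 5.22, 6.46 and 7.02, and in Tcl1b5 7.03, 9.17 and 5.68. The ratio was thus above 1 in all 18 pairs of a gene and a litter, and it was lowest in litter 3 in every gene but Tcl1b4. The ratio of Tcl1b4 also rests on a first exon taken as 669 bases, on which the peak began 486 bases inside. That of Tcl1b5 rests on a first exon with 21, 4 and 7 alignments. A low exon 1 raises both ratios, so their places beside Tcl1b2 depend on it. All last exons except that of Tcl1 can also hold reads of the other copies, so part of a Tcl1b ratio may be shared signal, which was not tested.

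**Figure D2:**
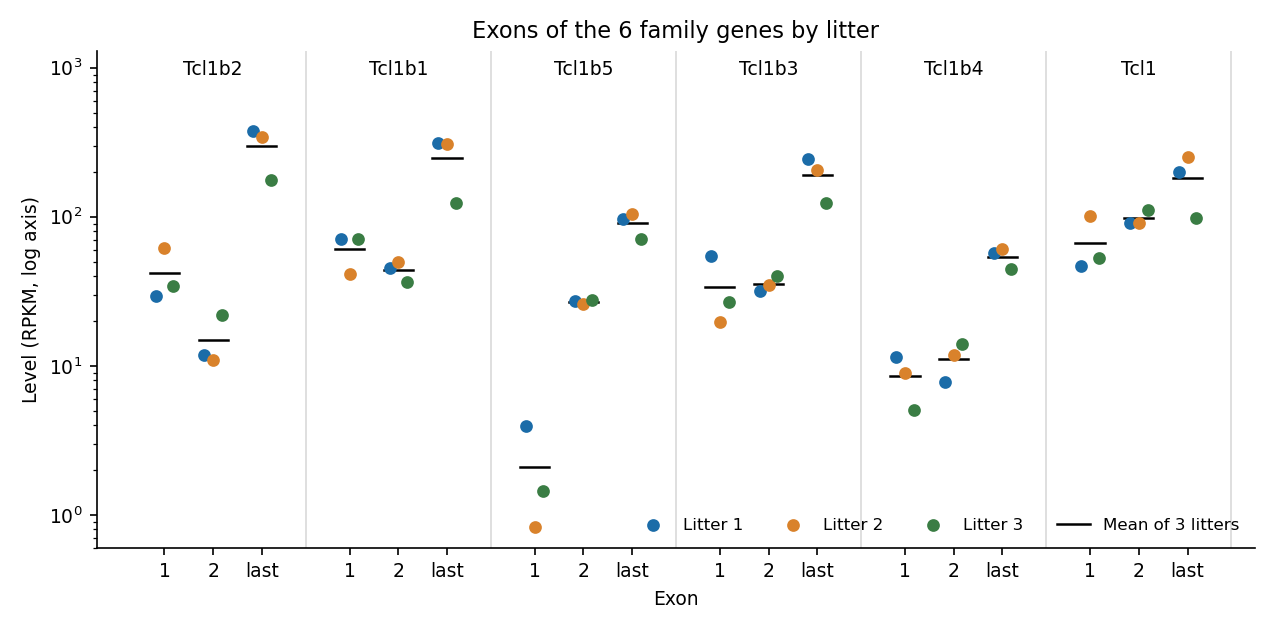
Level of exons 1, 2 and the last exon (RPKM, log axis) of the 6 genes in order along the chromosome, with a point per litter and a bar at the mean. The last exon stands above exons 1 and 2 of its gene in every litter, except that exon 2 of Tcl1 is higher in litter 3, and exon 1 of Tcl1b5 is the lowest, at a mean of 2.08 RPKM.

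The exons before the last were not equally covered. Exon 1 of Tcl1b5 had 3.95, 0.833 and 1.45 RPKM, from 21, 4 and 7 alignments, while its exon 2 had 27.4, 26.02 and 27.5 RPKM. With so few alignments in exon 1, its level is known only roughly. Exon 2 of Tcl1b5 had the smallest SD relative to its mean among the exons of at least 150 bases, at 27.0 ± 0.832 RPKM (SD, n = 3). Exon 2 of Tcl1 had 91.0, 90.9 and 111 RPKM, and exon 1 of Tcl1 had 47.0, 101 and 53.1 RPKM, so the litters differed in their order between these neighbouring exons. Exon 3 of Tcl1, of 70 bases, held 9, 17 and 5 alignments, and exon 3 of Tcl1b4, of 41 bases, held none in any litter. Reads of 72 bases that align without a gap cannot lie wholly inside these exons. Exon 3 of Tcl1b1, also of 70 bases, held 20, 34 and 49 alignments, since an alignment could reach up to 5 bases beyond an exon. Why Tcl1 had fewer was not tested. Exon 3 of Tcl1b3 has 75 bases, and a peak of 75 bases stood there, with 22, 90 and 73 alignments. Exon 3 of Tcl1b5, also of 75 bases, had 11, 10 and 101 alignments, with litter 3 far above the others.

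Exon-like peaks were defined as unbroken stretches of at least 72 bases with a depth of at least 10 in all 3 litters. The region held 36, numbered P1 to P36 along the chromosome. Of these, 22 lay on exons of the family, and 20 of the 24 placed exons had a peak. The 4 without were exon 3 of Tcl1, exon 3 of Tcl1b4 and exons 1 and 3 of Tcl1b5. The deepest peak was P12 on the last exon of Tcl1b2, with up to 5266, 4195 and 970 alignments over a single base in litters 1, 2 and 3. The peak on the last exon of Tcl1, P34, was 940 bases long and reached 3260, 3379 and 1234. On the last exons of Tcl1b1, Tcl1b2 and Tcl1b3, the peaks stopped 32 to 34 bases short of the annotated 3′ end, while that of Tcl1 came to within 6 bases of both borders.

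Depth along the last exons of the 5 Tcl1b genes was read in a stretch near each end and 1 in the middle. A maximum is the deepest base of a stretch and need not be a separate peak. In litters 1 and 2 the deepest base of the exon lay 388 to 401 bases from the 3′ end in all 5 genes. In litter 3 it lay outside the middle in Tcl1b3, Tcl1b5 and Tcl1b4, at 530, 531 and 111 bases. Depths in this account are the alignments over a base, scaled to a library of 1000000. In Tcl1b2 the middle maximum reached 149.7, 132.0 and 30.3 in litters 1, 2 and 3, the one nearer the 5′ end 23.1, 24.6 and 29.3, and the one nearer the 3′ end 17.5, 16.1 and 13.1. In Tcl1b1 the middle maximum reached 118.2, 123.1 and 24.4, and the 5′ one 12.3, 16.7 and 17.2. In Tcl1b4, the lowest of the family, the middle reached 15.4, 15.8 and 4.84, against 3.67, 4.66 and 4.84 near the 5′ end. Over the 5 genes, the maximum of the highest litter was 2.87 to 5.04 times that of the lowest in the middle, and litter 3 was the lowest in all 5. For the maxima near the 5′ end the range was 1.15 to 1.403 times, with litter 1 the lowest in 4 genes and litter 2 in 1. Near the 3′ end it was 1.18 to 1.74 times, with litter 3 the lowest in 4 of 5. The stretches, between 330 and 460 bases from the 3′ end for the middle, were drawn after the profiles had been seen. The genes share sequence in the last exon, so these 5 profiles are not separate measurements. Tcl1, which shares no word of 72 bases with them, was deepest 98 to 99 bases from its 3′ end, at 92.7, 106.3 and 38.5. A second maximum in the middle of its last exon reached 24.1, 43.3 and 2.81, 15.4 times higher in litter 2 than in litter 3.

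**Figure D3:**
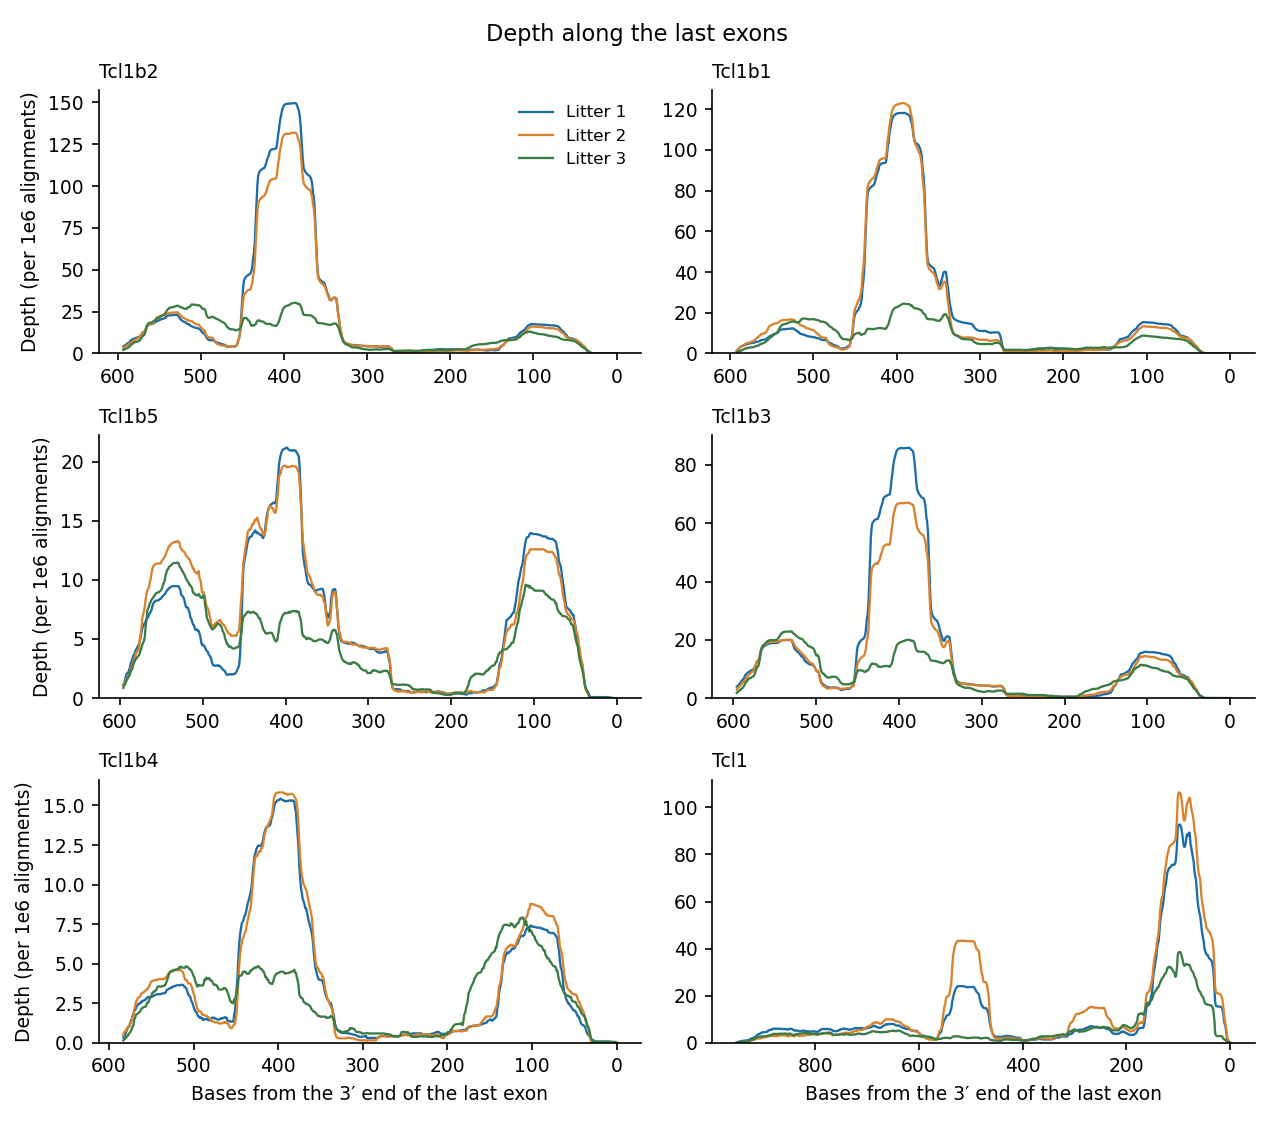
Depth scaled to a library of 1000000 alignments (vertical axis, from 0, with its own scale per gene) by distance in bases from the 3′ end of the last exon, which is at the right, for the 6 genes and 3 litters. The middle maximum of Tcl1b2 reaches 149.7 in litter 1 and 30.3 in litter 3, while its maximum near the 5′ end lies between 23.1 and 29.3 in the 3 litters.

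The last exons had a lowest litter in common, and the earlier exons did not. Summed over the 6 genes, the last exons had 760, 771 and 375 CPM in litters 1, 2 and 3, and exons 1 to 3 had 63.3, 68.4 and 66.7 CPM. Each of the 6 last exons was lowest in litter 3, with a median of 0.616 of the mean of the 3 litters there, against 1.18 in litter 1 and 1.15 in litter 2. The highest was litter 2 in Tcl1, Tcl1b4 and Tcl1b5, and litter 1 in the other genes. The last exons of the Tcl1b genes share sequence, so they are not separate observations. Of the 12 first and second exons, 5 were lowest in litter 1, 5 in litter 2 and 2 in litter 3. Singly these exons were about as spread, with a highest litter 1.06 to 4.74 times the lowest and a median of 1.90, but with no common lowest litter. The highest litter was 1.35 to 2.56 times the lowest in the last exons, with a median of 2.06. Over all 10913 windows of the files with a mean of at least 10 CPM, counted by leftmost base, this median was 2.12. The size of the spread was thus that of other windows of high signal. Litter 3 was the lowest in 40.4% of those windows and in 10 of 13 such windows of the region. Litter 2, not litter 3, was the smallest library. The part of the lane and of the amplification in these differences was not tested.

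The 10 most used start positions of each last exon were taken by their mean over the same litters, so positions high in any litter are favoured and the values are a description. They held 37.9%, 38.7% and 11.8% of the alignments in the last exon of Tcl1b1 in litters 1, 2 and 3. In Tcl1b2 they held 38.8%, 36.4% and 11.4%, and in Tcl1b3 35.5%, 31.9% and 10.6%. In Tcl1 they held 17.8%, 17.1% and 16.5%, about the same share in each litter. The alignments at all other starts in Tcl1b2 came to 123.7, 116.9 and 83.6 CPM, 1.48 times apart, and in Tcl1 to 146.7, 185.5 and 73.1 CPM, 2.54 times apart. With each start position counted once, the litters were nearly level: the 6 last exons then had a highest litter 1.03 to 1.18 times the lowest, without scaling to the library. A position counted once cannot exceed 1, so this measure is blind to how often a start was used. In the whole region 87.4%, 86.8% and 77.1% of alignments repeated a start, against 85.6%, 85.5% and 85.2% in all files.

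**Figure D4:**
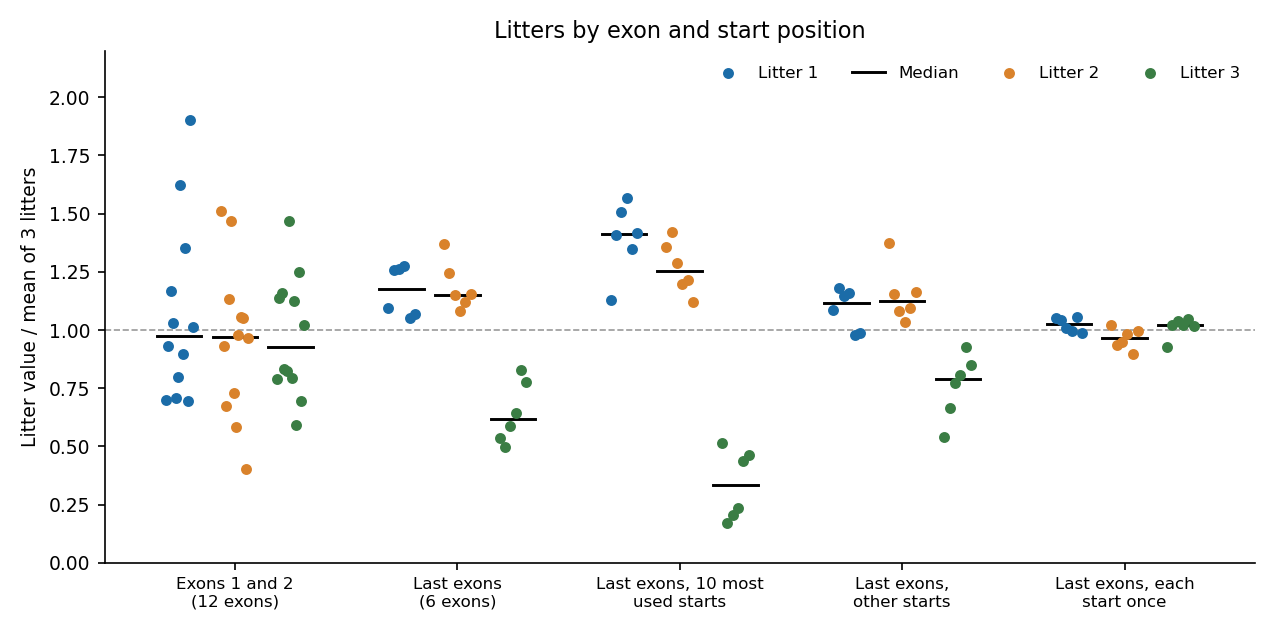
Value of each litter divided by the mean of the 3 litters (vertical axis) for exons 1 and 2, for the last exons, for the 10 most used and the other start positions of the last exons, and for distinct start positions, with a point per exon and a bar at the median. Litter 3 lies below 1 in all last exons, between 0.173 and 0.513 at the most used positions, and at a median of 1.02 when each position is counted once.

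A chi-square test of each window's 3 counts against the library totals, with Poisson error and Benjamini-Hochberg adjustment over the 10913 windows, called a window at an adjusted p under 0.05 and a ratio of the highest to the lowest litter over 4. Here, and in the mean CPM of a window, alignments were counted by their leftmost base. The test called 0 of the 13 region windows that had a mean of at least 10 CPM, against 1903 windows or 17.4% in the files. By the adjusted p alone, 12 of the 13 passed, against 97.5% of all windows, and the same 12 had an unadjusted p under 0.05. Counting error is small at this depth, so passing by the p alone says little. The 13 ratios ran from 1.17 to 2.93. The lowest ratio was that of the window with exons 2 and 3 of Tcl1, with an adjusted p of 0.0621. The highest was that of the window with the 3′ end of Tcl1. By summed depth these windows had means of 9.77 and 8.14 CPM. The region's windows were thus among those without a call.

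The 20 highest windows were led by the 4 that hold the last exons of Tcl1, Tcl1b1, Tcl1b2 and Tcl1b3, at 155 ± 64.6, 133 ± 57.7, 119 ± 59.6 and 103 ± 33.4 CPM (SD, n = 3). Among all windows of the files they ranked 623, 737, 846 and 1012 by mean CPM. The last exon of Tcl1b2 crosses a window border, and the neighbouring window added 42.2 ± 2.57 CPM. The windows with the last exon of Tcl1b5 had 31.8 ± 5.64 and 18.6 ± 2.71 CPM, and those with the last exon of Tcl1b4 18.7 ± 5.10 and 9.72 ± 1.21 CPM. Of the 20, 16 overlapped a family exon. The other 4 lay 5th, 8th, 15th and 18th in the region.

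The 5th window, chr12:106375001-106376000, was the highest with no family gene. It had 61.4, 48.3 and 30.9 CPM in litters 1, 2 and 3 (46.9 ± 15.3, SD, n = 3). It held P5, P6 and P7, which together spanned 562 bases, the length of P18 on the last exon of Tcl1b1. The middle one, P6, was the deepest, at up to 1764, 1194 and 573 alignments, while P7 had 89, 99 and 128. Litter 3 was thus the lowest in P6 and the highest in P7. P6 shared identical counts at 10 start positions with P29 on the last exon of Tcl1b3, or 2.15% of its alignments. None of the 6 genes was placed there.

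A set of 4 short peaks recurred along the cluster. P4, P8, P14 and P20, of 131 to 165 bases, had similar mean depths, at 74.3 to 83.4 in litter 1, 53.7 to 61.3 in litter 2 and 52.1 to 74.0 in litter 3. P8 and P14 had identical counts in all litters at 24 start positions, which were 76.9% of the alignments of P8 and 65.2% of those of P14. P4 shared 17 positions with P8, 18 with P14 and 14 with P20. P14 lay 879 bases after the peak on the last exon of Tcl1b2, P20 889 bases after that of Tcl1b1, and P8 891 bases after P7. These spacings are alike although no annotated exon was placed at any of the 4 peaks. P19, between the last exon of Tcl1b1 and P20, had 14.7, 9.15 and 9.77 CPM and was the largest part of the 8th window. Peaks P1, P2, P3, P13, P21 and P22 had 0.194 to 1.83 CPM on average, counting only alignments that lay almost wholly inside the peak. Alignments over its edges are left out, so P21 counted 5, 10 and 4 alignments at mean depths of 13.5, 79.0 and 13.7. P3 held 93.9% of its alignments in counts that recurred elsewhere. The 15th window, chr12:106278001-106279000, had 5.54, 14.3 and 1.98 CPM and lay farthest from the genes among these 20. All 14 peaks outside the family's exons summed to 99.2, 78.7 and 57.9 CPM, with alignments over peak edges again left out.

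Where copies had the same 72 bases, the files had the same counts. Over the last exons of the 6 gene pairs with common words, aligned positions with the same word had identical counts in all 3 litters at 261 of 263 positions. Where the words differed, counts were identical at 211 of 2447 positions, or 2.94% to 15.8% by pair. The transcripts were aligned to the coverage within 6 bases, at the shift with the most identical counts. This shift was chosen for each pair, so the choice favours identical counts. Tcl1b2 and Tcl1b3 were identical at all 117 such positions and Tcl1b1 and Tcl1b2 at all 39. For Tcl1b3 and Tcl1b5 it was 54 of 56. A depth in these stretches is therefore not the level of 1 gene.

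A run was taken as 3 start positions in a row that held 50 or more alignments together, and it was called recurring if its counts in every litter and its spacing were found again elsewhere in the files. Of 960 runs tested in the region 283 recurred, or 29.5%, against 21.2% of the runs in all files. A copy lay within the region for 155 of them, outside for 195 and in both for 67. Recurring runs held 13.1%, 11.9% and 16.6% of the region's alignments in litters 1, 2 and 3 (13.9% ± 2.43, SD, n = 3), against 25.9% ± 2.10 of all alignments, so the region was below the files as a whole by this measure. By gene the share was 23.4% in Tcl1b3, 22.1% in Tcl1b1, 18.8% in Tcl1b2, 9.75% in Tcl1b5, 3.72% in Tcl1b4 and 0% in Tcl1. Tcl1 was thus the one gene of the family whose level held no count of this kind.

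Most copies outside the region lay on sequence that mm9 does not place on a chromosome. Of the recurring runs, 180 had a copy on chrUn_random, 10 on chromosome 13, 4 on chromosome 6 and 3 on chromosome 5. The copies on unplaced sequence lay in a stretch from base 394642 to base 481945 of chrUn_random, taken with 5 kb on each side, which summed to 491, 461 and 315 CPM in litters 1, 2 and 3. Litter 3 was the lowest there too, but the stretch was chosen by counts identical to those of the region in every litter. Its litter order is therefore not a separate observation. By the same definition it held 28 exon-like peaks, numbered U1 to U28, and 20 of the 36 peaks of the region shared at least 5 start positions with 1 or more of them. Of the region's peaks, 13 shared as many with another peak of the region.

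The unplaced stretch repeated the layout of the genes. The exons of Tcl1b3 were met again as a pair of copies, U16 to U19 and U25 to U28. The peaks of exons 1 and 2 started 2373 bases apart in the cluster and 2394 and 2401 bases apart in the copies. The peaks of exons 2 and 3 were 1031 bases apart in the cluster and 1029 in each copy, and those of exons 3 and 4 563 bases apart in all cases. The mean depth of U16 and of U25 was 112.5, 36.5 and 47.9 in litters 1, 2 and 3, the same as that of P26 on exon 1 of Tcl1b3. The last exon did not follow: P29 on Tcl1b3 had a mean depth of 585, 448 and 268, while U19 and U28 each had 235.8, 228.9 and 165.1. U19 and U28 each shared 349 alignments with P29, fewer than the 431 with P12 of Tcl1b2 and the 452 with P24 of Tcl1b5. P17 on exon 3 of Tcl1b1 shared 96.5% of its alignments with U9, and P18 on the last exon of Tcl1b1 shared 171 start positions, or 28.3% of its alignments, with U10. P19 shared 80.0% with U11. Of the Tcl1b4 exons, P30 on exon 1 shared 71.1% with U20. No peak of Tcl1 had a partner on the unplaced stretch. The coverage does not record which copy a read came from.

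**Figure D5:**
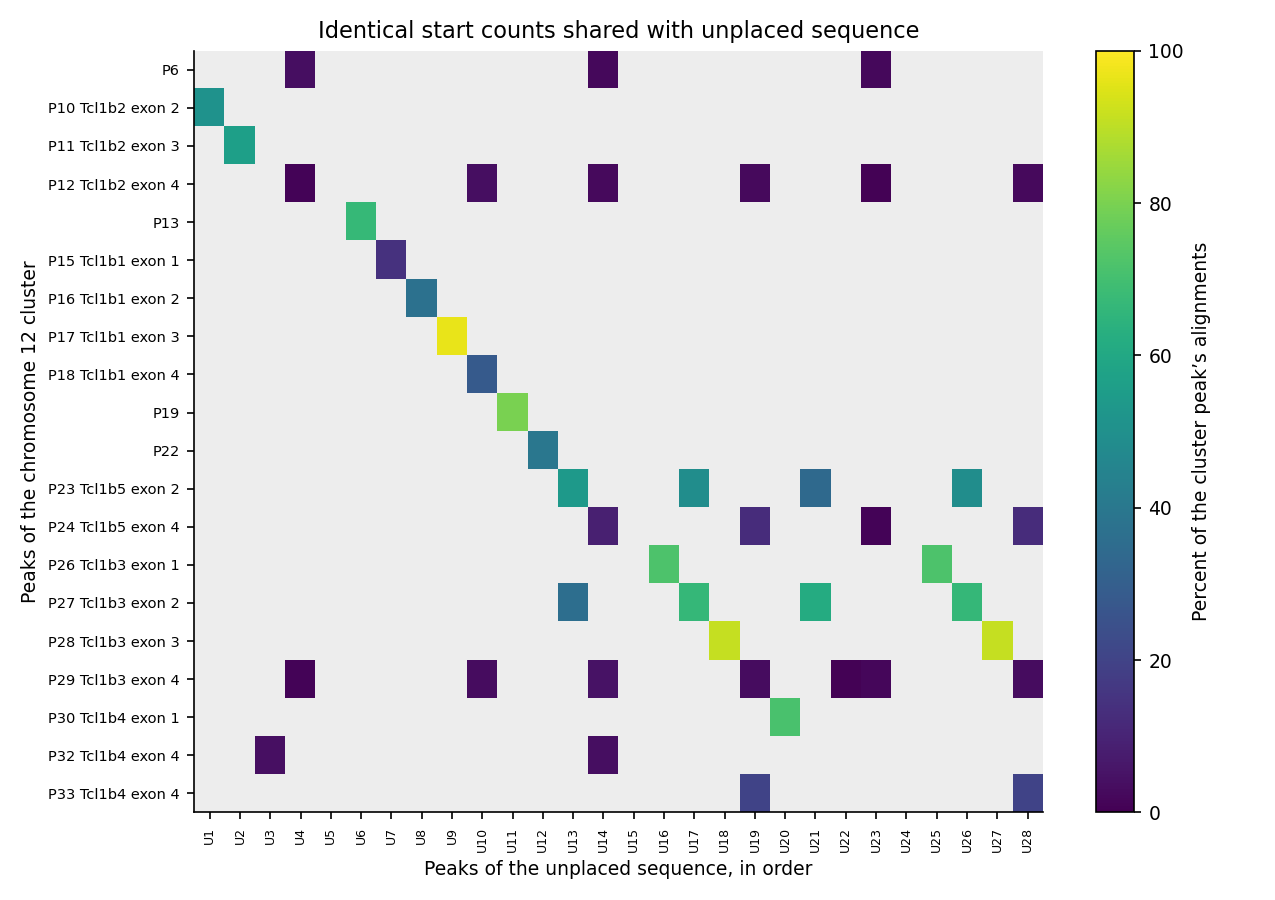
Share of each cluster peak's alignments at start positions with identical counts in all 3 litters (colour, percent) for the 20 peaks of the cluster that share at least 5 such positions with a peak of the unplaced sequence, in order along each sequence. Grey cells share fewer. P17 on exon 3 of Tcl1b1 reaches 96.5%. P26 and P28, on exons 1 and 3 of Tcl1b3, each have 2 partners, while P27 and P29, on its exon 2 and last exon, have more.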

How the data were processed

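Coverage tracks of 3 oocyte libraries were used, 1 per litter. Per the file headers, the authors deposited the signal as the depth of coverage per base, 1 track per lane from sorted alignments, not scaled to depth. Per the submitters' processing notes, Bowtie and mm9 were used. The sources used here give no other setting.

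Depth was turned back into alignment starts, taking each alignment as 72 gapless bases. This left 0 negative counts in each library, and 99.9% of isolated blocks were 72 bases long. CPM is summed depth over bases divided by 72, scaled to a library of 1000000. Litter tests counted alignments by their leftmost base. Exon patterns came from GENCODE M21 on GRCm38, and none of its coordinates is printed. An alignment counted in an exon could lie up to 5 bases beyond it, and one that crossed a border by 8 or more bases counted against a placement. The recovery of starts, the litter test, the recurring runs and the placement were tested on simulated data. Sequences were aligned with mafft 7.526, and the computations used Python 3.11.15, numpy 2.4.6 and scipy 1.17.1.

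The members and lists were chosen with earlier results of these data known. Named were the 20 highest windows, every called window, the peaks in them, and the TCL1 family. Its relative Mtcp1 lies outside the region and was not analysed here. Peaks outside the named windows were named after their values were seen. The alternatives changed the library total, window grid, thresholds, treatment of repeated starts and recurring runs, and left out each litter. The series has 1 group, so no groups were tested.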

Additional observations from a re-analysis of the deposited data

How the results depend on the processing

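Of 47 alternatives, 36 stayed within a set limit and 11 did not. The limit was the SD over litters, or 1.5 times for a count. For the spread of the last exons it was the SD of the ratio over these exons, 0.509. The region's sum of 809 CPM came to 1275 CPM when the 100 highest windows of the files were left out of the library total, and leaving out 1 litter gave 736 to 952 CPM. The 31 windows with at least 1 CPM fell to 14 at 5 CPM, and were 31 to 34 with 1 litter left out. The share in the 10 highest windows was 62.3% with each start position counted once, against 84.2%, and 82.6% to 86.4% with 1 litter left out. Peaks numbered 20 at the longer minimum length tried, against 36, and 37 to 39 with 1 litter left out. The recurring share was 18.5% with runs of at least 20 alignments and 26.3% with at least 10, against 13.9%, and 11.99%, 12.8% and 11.9% without litters 1, 2 and 3. Windows called between litters numbered 5 of 13 at a ratio over 2, against 5943 of 10913 in the files, and 2 of 35 at a mean of at least 1 CPM, against 18397 of 52367. They numbered 0 under each of the 5 others, leaving out each litter included. The spread of the last exons, chosen after seeing the data, was 2.06 times by the median, 1.11 with each start counted once, 1.46 without the 10 most used starts, which were picked on the same litters, and 1.82, 2.01 and 1.09 without litters 1, 2 and 3. It thus rests on litter 3. By construction, counting a start once removes repeats and a higher threshold keeps fewer windows; for the rest the cause was not tested. No paired analysis was possible because there is 1 group of samples. Depth limits exons of a few alignments, such as exon 1 of Tcl1b5.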
